A study of Danio rerio with 9 samples.

Results

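The DEAD and DEAH box RNA helicases were taken as the genes whose symbol in the platform annotation begins with ddx or dhx followed by a number, each read from whichever of its probe sets averaged highest across the 9 arrays. The rule gave 37 genes, 30 with ddx symbols and 7 with dhx symbols, of the 8793 genes named on the array, and 52 of the 15502 probe sets tested. DEAD and DEAH box proteins use ATP to unwind RNA duplexes, to clamp RNA or to strip proteins from it, and are named after the amino acids of a motif that binds ATP. They act at most steps in the life of an RNA, from processing of ribosomal RNA in the nucleolus through splicing and nuclear export to translation and decay. In lymphoid leukaemia cells they are of interest because MYC is known to drive ribosome production, in which many of them take part.

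Leukaemia cells of 2 zebrafish models were compared on 6 hMYC-ER arrays and 3 hlk arrays, 1 per sample. The labels describe the cells of both models as green fluorescent T-lymphoblasts, sorted from the body at the last stage of the disease. In hMYC-ER fish human MYC is fused to the hormone-binding part of the oestrogen receptor, and the published model of that name expresses it in lymphoid cells from the rag2 promoter. The published hlk line came out of a mutagenesis screen for heritable T cell malignancy. The labels name no promoter, strain, age, sex, hormone treatment or batch, and do not say whether each array came from its own fish, so that the p-values reflect only how far these samples vary, in part perhaps technically. A batch that runs with the model could not be separated from it: the 2 cannot be told apart. Arrays are numbered as in the labels, with hMYC-ER on 1 to 6 and hlk on 7 to 9.

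Signals are given on a log2 scale after quantile normalization, with values under a signal of 16 raised to that floor, which lies at 4. Differences are hMYC-ER minus hlk, and each adjusted p comes from limma with Benjamini-Hochberg adjustment over all 8793 genes, with 0.05 as the threshold. Against the labelled cell type, the T cell markers and the B cell markers split by model. Of 19 listed T cell markers 7 had a named probe set, and their summed signal was 1717 to 3526 on hMYC-ER arrays and 26519 to 33429 on hlk arrays. Of 17 listed B cell markers 9 were measured, with summed signals of 57396 to 71004 on hMYC-ER arrays and 5366 to 8343 on hlk arrays. In limma 9 of 9 B cell markers passed towards hMYC-ER, and 5 of 7 T cell markers passed towards hlk. Of these 5, rag1 passed narrowly (adjusted p 0.0477), and at 7.22 hlk array 7 lay within its hMYC-ER range of 5.48 to 8.08. The other 2 listed T cell markers, rag2 (1.25, adjusted p 0.565) and lef1 (0.23, adjusted p 0.634), pointed towards hMYC-ER without passing. Developing B cells also use rag1 and rag2, so these 2 genes do not separate the lineages, though both enter the summed T cell signal. The B cell factor pax5 stood at the floor on 2 of 3 hlk arrays. Of 10 listed myeloid markers 7 were measured, with summed signals of 17362 to 25535 on hMYC-ER arrays and 6436 to 8453 on hlk arrays. Among them ncf1 passed, higher in hMYC-ER (7.93, adjusted p 4.3e-07), and 6 did not pass. The mean of ncf1 was 13.66 in hMYC-ER and 5.73 in hlk, so this 1 gene weighs heavily in the summed signal of hMYC-ER. In hlk lcp1 was the brightest, with a mean of 12.72, against 12.88 in hMYC-ER. The means of csf1ra, mpx, mmp13a and mmp9 lay near the floor, between 4.00 and 5.77 in both models. Of the 7 differences 3 lay above 0 and 4 below, with a median of -0.31. Because the B cell markers and most T cell markers follow the model, their part in the helicase differences cannot be told apart from it. The gapdhs control probe sets, which compare both ends of 1 transcript, read 4.50 times as much signal at the 3' end as at the 5' end on hMYC-ER array 1, 50.8 times on hlk array 7 and 2.20 to 2.77 times on the other 7 arrays. Values without array 7 or array 1 are given beside the results that those arrays moved most.

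Most helicase genes did not pass the test between the models. Of the 37 genes, 4 passed towards hMYC-ER, namely dhx37, ddx47, ddx27 and ddx18, and 3 passed towards hlk, namely dhx15, dhx29 and ddx39b. All 4 genes higher in hMYC-ER are known for ribosome biogenesis. The 3 higher in hlk were listed under splicing, translation and mRNA export, though dhx15, listed under splicing, also acts in ribosome biogenesis. Over all genes, 21.9% passed, 10.5% towards hMYC-ER and 11.5% towards hlk. Among the helicases 18.9% passed, 10.8% towards hMYC-ER and 8.11% towards hlk, near the shares over all genes. Those shares include many dim genes, of which fewer passed: 6.97% under a mean log2 signal of 6, where 4 helicases lay. From 6 to 9, 29.0% of genes and 3 of 15 helicases passed. From 9 to 12 it was 32.6% and 3 of 13, and above 12 it was 22.9% and 1 of 5. A fit without hlk array 7 called 5 towards hMYC-ER and 4 towards hlk, of which 3 and 3 were also called with all arrays, and of all genes 11.7% and 10.7%. Of the calls with all arrays 57.1% pointed towards hMYC-ER, but 40% (2 against 3) with centring of the array medians in place of quantile normalization, a scaling that called 9.14% of all genes towards hMYC-ER and 13.2% towards hlk. That scaling gave a median difference of all genes of -0.18, against -0.08. With a 2-fold minimum added to the threshold, 2 helicases passed towards hMYC-ER and 0 towards hlk, where 7.34% and 5.8% of all genes did.

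The differences of the helicases were small. Their median difference was -0.02, against -0.08 for all genes, and 17 of the 37 (45.9%) lay above 0, against 44.0% of all genes. Of the 37, 3 differed at least 2-fold in either direction whether or not they passed (8.11%), against 18.7% of all genes. Among these 3, ddx17 did not pass, and its difference of 1.32 became 0.04 without hlk array 7. None of the 37 reached a 4-fold difference, which 508 genes of the array (5.78%) did. The median size of the difference was 0.34 for the helicases and 0.43 for all genes.

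**Figure D1:**
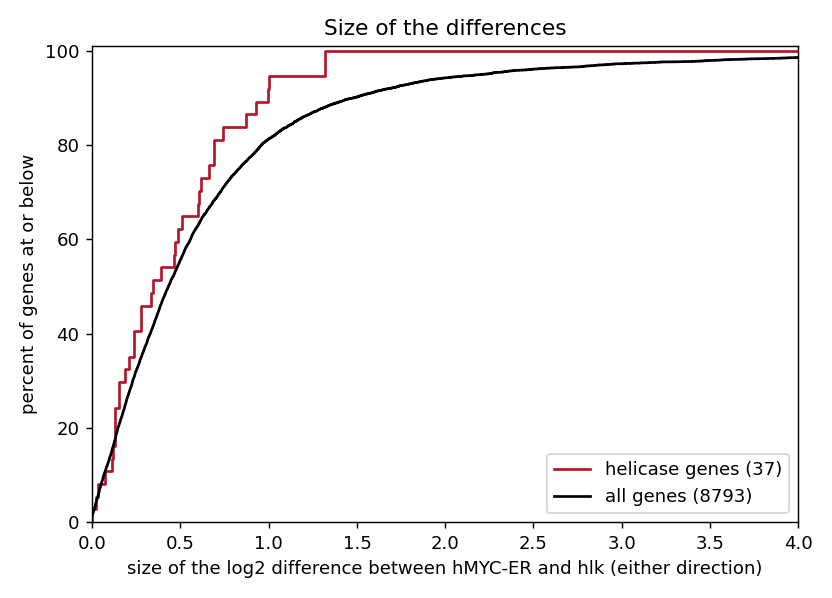
Cumulative percent of genes (vertical axis) at or below each size of the log2 difference between hMYC-ER and hlk in either direction (horizontal axis, shown up to 4), for the 37 helicase genes and for all 8793 genes. The helicase curve ends at 1.32, the size for dhx37, whereas 18.7% of all genes lie at or beyond 1.

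The 12 measured helicases listed under ribosome biogenesis gave all of the calls towards hMYC-ER. These proteins remodel pre-ribosomal RNA and release the small nucleolar RNAs that guide its folding and cleavage. Another helicase that also acts there, dhx15, was higher in hlk and was listed under splicing. Role lists were chosen with earlier results of these data known, so this grouping of calls is a description and not a test. In the limma test 4 of the 12 passed towards hMYC-ER (33.3%), 0 towards hlk, and 8 in neither direction. Of all genes 10.5% passed towards hMYC-ER and 11.5% towards hlk. These shares include dim genes, of which fewer passed, 6.97% in either direction under a mean log2 signal of 6. The 12 helicases are all brighter than that. At an unadjusted p under 0.05, limma gave 7 towards hMYC-ER and 0 towards hlk, and an exact two-sided rank-sum test gave 5 and 0. Of all genes, limma gave 15.3% towards hMYC-ER and 19.2% towards hlk at that unadjusted p, and the rank-sum test 13.5% and 16%. The median difference of the 12 was 0.43, and 9 of them lay above 0. Without hlk array 7 the median was 0.38, with 5 calls towards hMYC-ER and 0 towards hlk. That fit called 11.7% of all genes towards hMYC-ER and 10.7% towards hlk.

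dhx37, the helicase that releases the U3 small nucleolar RNA from the pre-ribosome of the small subunit, had the largest called difference. Its signal ran from 8.17 to 8.85 on the hMYC-ER arrays with a median of 8.25, and was 7.04, 7.61 and 6.50 on hlk arrays 7, 8 and 9. The groups did not overlap, and the difference was 1.32 (SE 0.25, adjusted p 0.00667), a 2.499-fold higher signal in hMYC-ER. In sorted bulk RNA such as this, fewer cells of a type and less RNA per cell cannot be told apart. ddx47, also a factor of early pre-ribosomal RNA cleavage, ran from 8.93 to 9.61 with a median of 9.24 in hMYC-ER, and was 7.81, 8.52 and 8.45 in hlk. Array 7 was the lowest of the 3 hlk arrays, and arrays 8 and 9 were also below each hMYC-ER array. The difference was 1.00 (SE 0.20, adjusted p 0.00946), and 0.77 without array 7 (adjusted p 0.0222).

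ddx27, a factor of large subunit assembly, ran from 10.55 to 11.10 with a median of 10.92 in hMYC-ER, and was 10.48, 10.25 and 9.86 in hlk. The highest hlk value, on array 7, lay just below the lowest hMYC-ER value. The difference was 0.69 (SE 0.17, adjusted p 0.0235). It no longer passed without hlk array 8 (0.72, adjusted p 0.0525) or hlk array 9 (0.52, adjusted p 0.0760). ddx18, which takes part in the assembly of both subunits, ran from 11.30 to 11.76 with a median of 11.52 in hMYC-ER, and was 11.10, 11.21 and 10.91 in hlk. These groups also lay apart, though only by a small gap, and the difference was 0.47 (SE 0.13, adjusted p 0.0313). The call for ddx18 was lost without any 1 of arrays 1, 2, 4, 6, 7 and 9 (adjusted p 0.0508 to 0.101, differences 0.38 to 0.48). A dimmer ddx18 probe set ran from 7.11 to 9.13 with a median of 8.77 in hMYC-ER, and was 5.85, 7.89 and 7.24 in hlk. It pointed the same way by 1.44 (SE 0.58) but did not pass over all probe sets (adjusted p 0.130), and it was lowest on arrays 1 and 7 within their groups.

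The other 8 helicases of ribosome biogenesis did not pass. For small subunit factors, ddx52 gave 0.69 (adjusted p 0.0654) and ddx49 gave 0.13 (adjusted p 0.647). For large subunit factors, ddx55 gave 0.39 (adjusted p 0.0990) and ddx56 gave 0.34 (adjusted p 0.0931). ddx31, ddx51 and ddx54, also factors of the large subunit, gave values between -0.24 and -0.11 with adjusted p of 0.589 to 0.728. ddx52 and ddx55 passed when hlk array 7 was left out (0.87, adjusted p 0.0391, and 0.53, adjusted p 0.0321), and ddx56 passed when hlk array 8 was left out (0.47, adjusted p 0.0350).

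ddx21, a nucleolar helicase that links RNA polymerase I transcription with ribosomal RNA processing, ran from 12.95 to 13.81 with a median of 13.58 in hMYC-ER, and was 11.97, 13.84 and 13.21 in hlk. Arrays 8 and 9 lay within the hMYC-ER range and array 7 below it. Its difference of 0.51 (SE 0.38, adjusted p 0.387) became -0.01 without array 7.

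**Figure D2:**
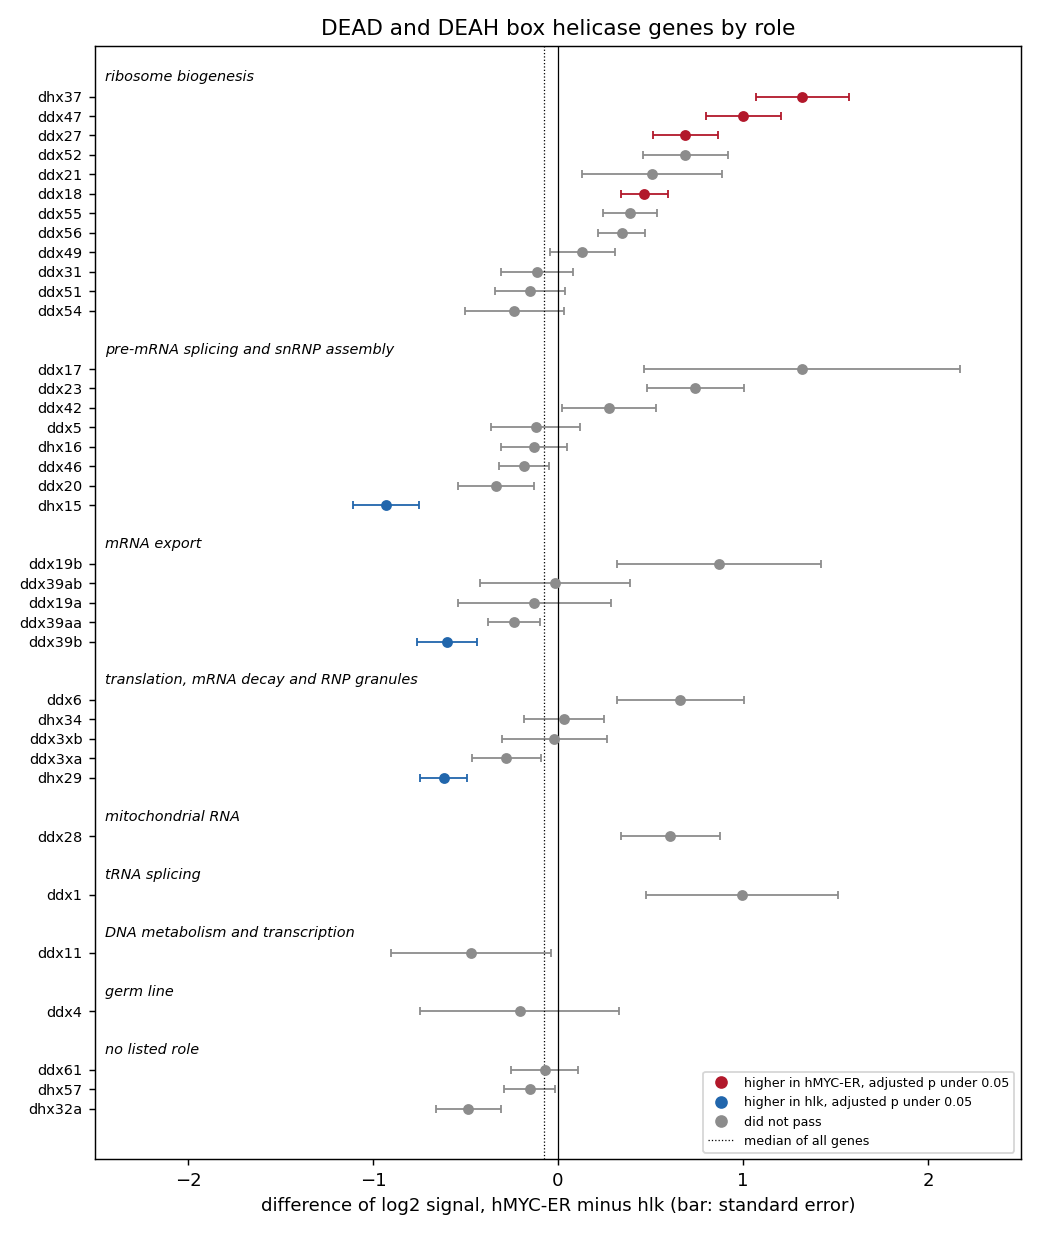
Log2 difference between hMYC-ER and hlk (horizontal axis, points, with standard errors as bars) for each of the 37 helicase genes (vertical axis, grouped by role). The 4 genes that passed towards hMYC-ER all lie in the ribosome biogenesis block, and the 3 that passed towards hlk lie in 3 other blocks. Roles were listed with earlier results of these data known, and dhx15, which also acts in ribosome biogenesis, stands in the splicing block.

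Among 8 measured helicases of splicing and small nuclear RNP assembly, limma called 0 towards hMYC-ER and 1 towards hlk, leaving 7 that did not pass. Over all genes it called 10.5% and 11.5%. At an unadjusted p under 0.05 there was 1 in each direction by limma and by the rank-sum test. At that p, limma gave 15.3% of all genes towards hMYC-ER and 19.2% towards hlk, and the rank-sum test 13.5% and 16%. dhx15, which takes apart the spliceosome after splicing and also acts in ribosome biogenesis, ran from 11.59 to 12.29 with a median of 11.69 in hMYC-ER, and was 12.48, 12.91 and 12.81 in hlk. All 3 hlk arrays lay above all 6 hMYC-ER arrays, with array 5 the highest of hMYC-ER. The difference was -0.93 (SE 0.18, adjusted p 0.00714), which makes the signal 1.90-fold higher in hlk, and it was -1.06 without array 7 (adjusted p 0.00798).

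The remaining splicing helicases act at single steps of spliceosome assembly and activation or, for ddx20, in the SMN complex that loads Sm proteins on small nuclear RNA. ddx23, the helicase that frees U1 from the 5' splice site, gave 0.74 (adjusted p 0.0787), and passed without hlk array 9 (0.98, adjusted p 0.0452). The branch site factors ddx46 and ddx42 gave -0.18 and 0.28 (adjusted p 0.385 and 0.492), that of ddx42 becoming -0.12 without array 7 (adjusted p 0.455), and the activation factor dhx16 gave -0.13 (adjusted p 0.664). ddx20 gave -0.33 (adjusted p 0.299), with a further probe set at -0.12.

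ddx5 and ddx17 are closely related cofactors of splicing, microRNA processing and transcription. ddx5 ran from 12.22 to 13.36 with a median of 12.76 in hMYC-ER, and was 12.85, 13.11 and 12.89 in hlk, and gave -0.12 (SE 0.24, adjusted p 0.771). ddx17 ran from 7.74 to 9.59 with a median of 9.20 in hMYC-ER, and was 5.13, 9.26 and 8.70 in hlk. The lowest values of ddx17 in each model came from array 1 and array 7, and its difference of 1.32 (SE 0.86, adjusted p 0.321) became 0.04 without array 7 and 1.57 without array 1 (adjusted p 0.979 and 0.253). A further ddx17 probe set showed the same order, at 5.52 on array 1 and 4.57 on array 7, and gave 1.08 (SE 1.02).

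Of the 5 helicases of mRNA export, 1 passed, towards hlk, as did 11.5% of all genes. By limma 0 were higher in hMYC-ER, also at an unadjusted p under 0.05, where the rank-sum test also gave 0. Over all genes limma called 10.5% towards hMYC-ER. At the unadjusted p it gave 15.3% that way, and the rank-sum test 13.5%. ddx39b, the helicase that loads the export complex on spliced mRNA, ran from 9.46 to 9.86 with a median of 9.81 in hMYC-ER, and was 10.15, 10.64 and 10.12 in hlk. The groups lay apart, and the difference was -0.60 (SE 0.16, adjusted p 0.0297). The call was lost without array 3, 4 or 8 (adjusted p 0.0562, 0.0523 and 0.0849), and the difference was smallest, at -0.43, without array 8. Its paralogues ddx39aa and ddx39ab gave -0.24 (adjusted p 0.279) and -0.01 (adjusted p 0.996). ddx39ab ran from 11.64 to 12.08 with a median of 11.94 in hMYC-ER, and was 10.66, 12.23 and 12.82 in hlk. Array 7 lay below each hMYC-ER array and arrays 8 and 9 above, and without array 7 ddx39ab passed at -0.64 (adjusted p 0.0455).

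The export factor ddx19b, which strips proteins from mRNA at the cytoplasmic face of the nuclear pore, ran from 8.43 to 10.07 with a median of 10.004 in hMYC-ER, and was 7.50, 9.13 and 9.84 in hlk. The lowest values again came from arrays 1 and 7, and its difference of 0.87 (SE 0.55, adjusted p 0.309) became 0.21 without array 7 and 1.12 without array 1 (adjusted p 0.803 and 0.147). A dimmer ddx19b probe set ran from 7.30 to 8.13 with a median of 7.73 in hMYC-ER, was 7.24, 7.66 and 8.34 in hlk, and gave -0.02. The paralogue ddx19a lay at the floor for 3 of 6 arrays of hMYC-ER and 1 of 3 of hlk, and gave -0.13 (adjusted p 0.870).

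Of the 5 helicases of translation, mRNA decay and RNP granules, 1 passed, towards hlk, as did 11.5% of all genes. By limma 0 were higher in hMYC-ER, also at an unadjusted p under 0.05, where the rank-sum test also gave 0. Over all genes limma called 10.5% towards hMYC-ER. At the unadjusted p it gave 15.3% that way, and the rank-sum test 13.5%. dhx29, which helps the small ribosomal subunit scan structured 5' leaders, ran from 7.95 to 8.35 with a median of 8.17 in hMYC-ER, and was 8.88, 8.59 and 8.85 in hlk. The groups did not overlap, and the difference was -0.62 (SE 0.13, adjusted p 0.00945). It remained past the threshold when any 1 array was left out, with differences from -0.71 to -0.56.

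The DDX3 paralogues, which promote translation of mRNAs with structured leaders, did not pass. ddx3xa ran from 10.69 to 11.32 with a median of 10.93 in hMYC-ER, was 11.58, 11.21 and 11.04 in hlk, and gave -0.28 (adjusted p 0.345). Its 2 further probe sets pointed the other way by 0.65 and 0.86 without passing (adjusted p 0.338 and 0.296 over all probe sets), and both were lowest in hlk on array 7, where the first was highest. ddx3xb ran from 11.96 to 12.40 with a median of 12.21 in hMYC-ER, was 11.38, 12.54 and 12.79 in hlk, and gave -0.02 (adjusted p 0.981) with all arrays and -0.45 (adjusted p 0.0566) without array 7. ddx6, a P-body helicase that joins decapping to repression of translation, gave 0.66 (adjusted p 0.213) at signals near the floor, with hlk arrays 7 and 8 at it. dhx34, known in mammals for nonsense-mediated decay, gave 0.03 (adjusted p 0.941).

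**Figure D3:**
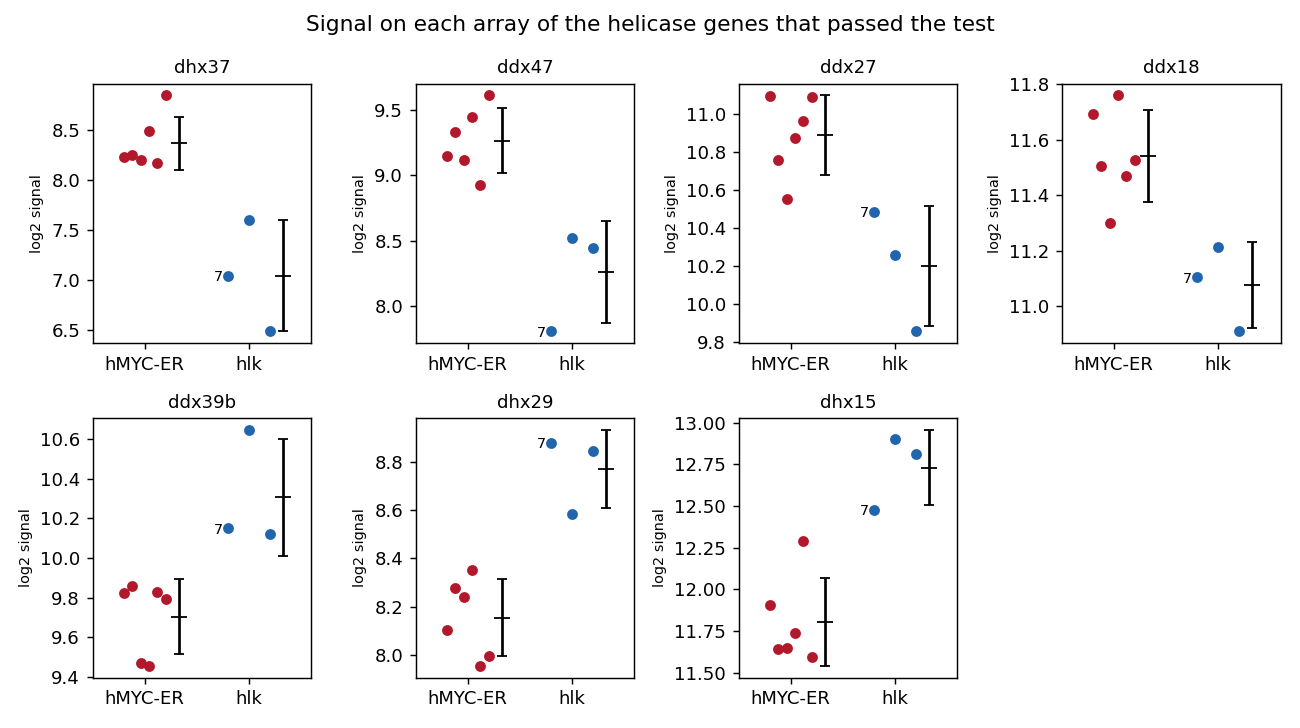
Log2 signal (vertical axis, scaled for each gene and not starting at 0) on each array for the 7 helicase genes that passed, hMYC-ER arrays left and hlk arrays right, with the mean and SD in black and hlk array 7 marked. For each of the 7 genes the 6 hMYC-ER points and the 3 hlk points do not overlap.

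The groups did not overlap for 7 of the 37 helicases, 4 towards hMYC-ER and 3 towards hlk, and these were the 7 called genes. Over all genes 23.1% did not overlap, 10.7% towards hMYC-ER and 12.4% towards hlk. For each of the 7 the exact rank-sum test gave the smallest p that 6 against 3 arrays allow without ties, 0.0238, and after adjustment over all genes that test called 0 genes of the array, with a smallest adjusted p of 0.102. At an unadjusted p under 0.05 it gave 9 of the 37 helicases and 29.5% of all genes, whereas limma gave 12 of the 37 and 34.5% of all genes.

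The helicases with other roles gave no call in either direction. ddx1, a subunit of the tRNA ligase complex, ran from 6.17 to 7.54 with a median of 7.23 in hMYC-ER, and was 4.69, 6.98 and 6.74 in hlk. Its lowest values in each model also came from arrays 1 and 7, and its difference of 1.00 (SE 0.52, adjusted p 0.218) became 0.27 without array 7 and 1.19 without array 1 (adjusted p 0.649 and 0.139). ddx28, a factor of mitochondrial ribosome assembly, gave 0.61 (adjusted p 0.150). ddx11, a DNA helicase of sister chromatid cohesion, gave -0.47 (adjusted p 0.496). ddx4, the germ cell helicase Vasa, ran from the floor to 5.11 with a median of 4.55 in hMYC-ER, and stood at 6.37 on hlk array 7 and at the floor on hlk arrays 8 and 9. Its difference was -0.21 (adjusted p 0.832), and 0.55 (adjusted p 0.256) without array 7. Of 11 other germ cell markers measured, 0 passed by limma, and at an unadjusted p under 0.05 limma and the rank-sum test each gave 1, towards hlk. Over all genes limma called 10.5% towards hMYC-ER and 11.5% towards hlk. At the unadjusted p limma gave 15.3% and 19.2% of all genes in these directions, and the rank-sum test 13.5% and 16%. The summed signal of these 11 markers was 644 to 1064 on the hMYC-ER arrays, and 2204, 792 and 732 on hlk arrays 7, 8 and 9. Like ddx4 their summed signal was higher on array 7 than on the other hlk arrays, but this did not hold for each marker. On array 7 nanos1 and buc stood at the floor, and zp3b was 6.56 there against 6.80 on array 9. The part of these markers in the ddx4 values was not tested.

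Of the 3 helicases without a listed role, dhx32a was at the floor on all 6 hMYC-ER arrays and at 4.92, 4.53 and 4.00 on the hlk arrays (adjusted p 0.0862). dhx57 gave -0.15 (adjusted p 0.478). ddx61 ran from 11.41 to 12.22 with a median of 11.997 in hMYC-ER, was 11.79, 12.08 and 12.13 in hlk, and gave -0.07 (adjusted p 0.824), while a second ddx61 probe set gave 0.33 and another, partly at the floor, gave 1.42.

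More than 1 probe set was present for 11 of the 37 genes. For 8 of these at least 2 sets lay above the floor on all arrays, and in 5 of the 8 such sets differed in sign, namely ddx19b, ddx31, ddx3xa, ddx51 and ddx61, none of which passed on any set. ddx31 had a chosen set that ran from 7.70 to 8.41 with a median of 8.02 in hMYC-ER and was 8.26, 8.25 and 7.94 in hlk. Its second set ran from 7.40 to 7.89 with a median of 7.67 in hMYC-ER, was 6.72, 7.98 and 7.65 in hlk, and gave 0.23. ddx51 ran from 9.36 to 10.19 with a median of 9.48 in hMYC-ER, was 9.93, 9.75 and 9.59 in hlk, and its sets above the floor differed by -0.15 to 0.01. Calls differed between sets above the floor for 1 gene, ddx18, as given above.

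Array 7 stood apart from the other hlk arrays for several helicases. Relative to the mean of hlk arrays 8 and 9, array 7 was lower by 1 or more on the log2 scale for 7 of the 37 helicases (18.9%), against 9.46% of all genes, and higher by as much for 1, ddx4, against 12.6% of all genes. The 7 were ddx17 (-3.84), ddx1 (-2.18), ddx19b (-1.98), ddx39ab (-1.87), ddx21 (-1.55), ddx3xb (-1.29) and ddx42 (-1.19). Relative to the median of the other hMYC-ER arrays, array 1 was lower by as much for 3 of the 37 (8.11%), against 4.97% of all genes. These were ddx19b (-1.61), ddx17 (-1.47) and ddx1 (-1.08), all 3 also among the 7. Array 1 was higher by as much for 1 helicase, ddx19a (1.36), and for 5.58% of all genes. Arrays 1 and 7 had the highest 3' to 5' control ratios, 4.50 and 50.8, whose part in these values was not tested. Without array 7, 6 of the 37 differences changed sign and 6 moved by 0.5 or more. Of all 8793 genes, 1258 changed sign and 981 moved by as much. With arrays 1 and 7 both left out, a comparison chosen after seeing the data, 3 helicases passed towards hMYC-ER and 2 towards hlk, as did 11.1% and 10.7% of all genes.

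**Figure D4:**
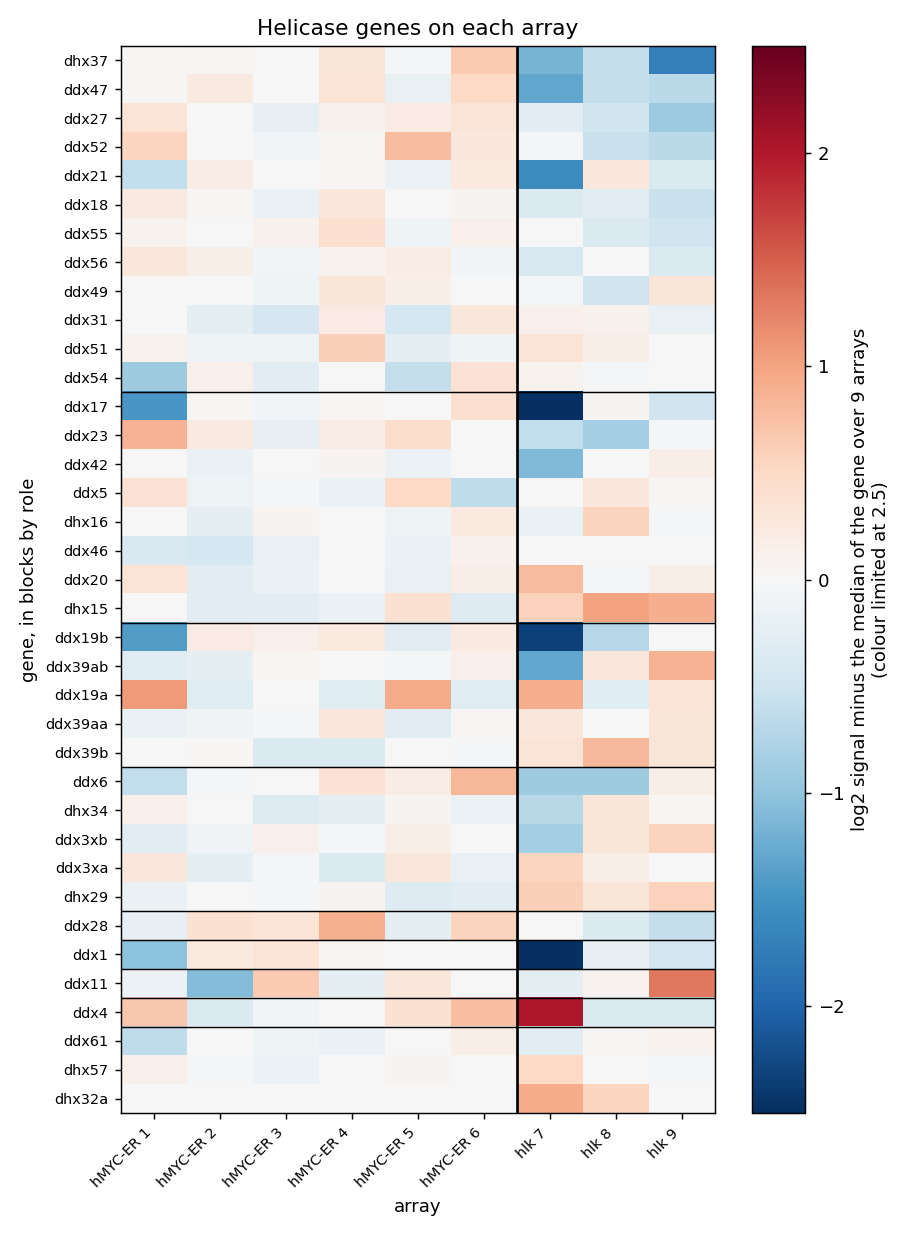
Log2 signal of each helicase gene on each array (colour, as the difference from that gene's median over the 9 arrays, limited at 2.5), with hMYC-ER arrays left of the thick line, hlk arrays right of it, and genes (rows) in blocks by role. The darkest low values lie on hlk array 7, at ddx17, ddx1 and ddx19b, which are also low on hMYC-ER array 1.

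**Figure D5:**
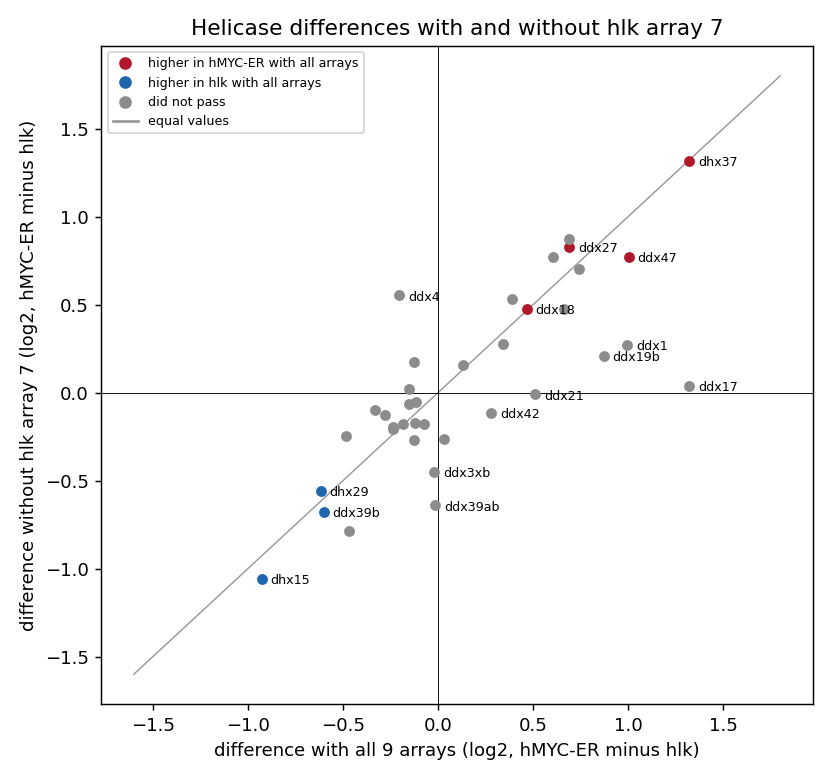
Log2 difference between hMYC-ER and hlk of each of the 37 helicase genes with all 9 arrays (horizontal axis) and without hlk array 7 (vertical axis), with the line of equal values. The genes dhx37, dhx15 and dhx29 lie near the line, whereas ddx17, at 1.32 with all arrays, lies at 0.04 without array 7.

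The partners of these helicases were read from lists chosen by function, with earlier results of these data known. Of 11 measured G-patch cofactors, proteins that switch on DEAH box helicases such as dhx15, 2 passed towards hMYC-ER and 1 towards hlk. Over all genes 10.5% passed towards hMYC-ER and 11.5% towards hlk. The nucleolar cofactors pinx1 (1.30, adjusted p 0.00411) and gpatch4 (0.96, adjusted p 0.00252) were higher in hMYC-ER. The cofactor tfip11, which works with dhx15 in taking apart the spliceosome, was higher in hlk (-1.17, adjusted p 0.00398), as was dhx15 itself. These 3 calls were also made without array 7.

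Of 12 measured genes of the TREX export complex and its nuclear pore partners, which act with ddx39b and ddx19b, 4 passed towards hlk, as did 11.5% of all genes, and 0 towards hMYC-ER, as did 10.5%. At an unadjusted p under 0.05 limma gave 0 towards hMYC-ER and 6 towards hlk, and the rank-sum test 0 and 4, where all genes gave 15.3% and 19.2% by limma and 13.5% and 16% by ranks. The TREX components zc3h11a (-1.31, adjusted p 6.5e-04), thoc7 (-1.14, adjusted p 0.0162) and thoc1 (-0.38, adjusted p 0.0269) were among the 4. The list median was -0.35, and without array 7 it was -0.45 with 3 genes higher in hlk, of which 1 was called with all arrays.

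Of 20 measured partners of translation initiation, 3 passed towards hMYC-ER and 2 towards hlk, with a median of 0.05. Over all genes 10.5% passed towards hMYC-ER and 11.5% towards hlk. eif4ebp3l (3.11, adjusted p 5.0e-04) and eif4ebp1 (1.75, adjusted p 4.6e-04), which hold back cap-dependent translation by binding eIF4E, were higher in hMYC-ER. Their paralogue eif4ebp2 pointed towards hlk without passing (-0.39, adjusted p 0.0596). The initiation factor eif4bb was also higher in hMYC-ER (0.77, adjusted p 0.00186), and pabpc1b was higher in hlk (-1.73, adjusted p 0.0224). pdcd4b, an inhibitor of the eIF4A helicase, was higher in hlk (-2.10, adjusted p 3.3e-04). Its brighter paralogue pdcd4a pointed the other way without passing (0.51, adjusted p 0.114). The eIF4A genes encode DEAD box helicases under another name and were looked at for that reason, outside the naming rule. eif4a1a gave 0.66 (adjusted p 0.298), eif4a1b 0.43 (adjusted p 0.213), eif4a2 -0.21 (adjusted p 0.302) and eif4a3, a core protein of the exon junction complex, -0.19 (adjusted p 0.574). On hlk arrays 7, 8 and 9 eif4a1a was 11.33, 12.62 and 13.09, and eif4a1b was 12.80, 13.87 and 13.57. For both genes array 7 lay below each hMYC-ER array, and arrays 8 and 9 lay within the hMYC-ER range.

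Of 25 measured decapping and CCR4-NOT genes, partners of ddx6, 3 passed towards hMYC-ER and 5 towards hlk, with a median of -0.37. For this list and the next ones the shares over all genes were 10.5% towards hMYC-ER and 11.5% towards hlk. The CCR4-NOT scaffold cnot1 (1.23, adjusted p 5.7e-04), the decapping factor dcp1a (0.65, adjusted p 0.00432) and lsm14aa (1.15, adjusted p 0.00846) were higher in hMYC-ER. In the other direction, lsm1, of the ring that marks mRNA for decapping, was higher in hlk (-1.72, adjusted p 9.6e-04). So were the CCR4-NOT genes cnot3b (-0.90, adjusted p 0.0136), cnot10 (-0.71, adjusted p 0.0286) and cnot7 (-0.94, adjusted p 0.0411), and the decapping factor edc4 (-0.62, adjusted p 0.0154). Of 11 measured genes of the exon junction complex and nonsense-mediated decay, smg8 passed, higher in hlk (-0.67, adjusted p 0.0255), and without array 7 this list gave 0 calls. Of 11 measured genes of the SMN and tRNA ligase complexes, 0 passed by limma in either direction, with 2 at an unadjusted p under 0.05, both higher in hMYC-ER, against 1 in each direction by the rank-sum test. The 2 smallest p were those of gemin4 (0.48, adjusted p 0.0505) and rtraf (0.53, adjusted p 0.0800). Without array 7 the list gave 2 genes higher in hMYC-ER, where 11.7% of all genes passed that way. At an unadjusted p under 0.05, limma gave 15.3% of all genes towards hMYC-ER and 19.2% towards hlk, and the rank-sum test 13.5% and 16%.

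RNA sensing helicases of the RIG-I type had no member under the rule here. Of 6 measured genes of their signalling pathway, the transcription factor irf7 was higher in hMYC-ER (1.66, adjusted p 0.00412). The ubiquitin ligase trim25 (-1.05, adjusted p 0.00111) and the adaptor mavs (-0.99, adjusted p 0.0200) were higher in hlk. Over all genes 10.5% passed towards hMYC-ER and 11.5% towards hlk. Of 7 measured RNA helicases with other names, 0 passed by limma, with 1 at an unadjusted p under 0.05 towards hMYC-ER by limma and 1 towards hlk by the rank-sum test. The 2 with the smallest p were dqx1, at the floor on all 3 hlk arrays and on 1 of 6 hMYC-ER arrays (adjusted p 0.0693), and helz (-0.25, adjusted p 0.194).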

How the data were processed

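Sorted zebrafish leukaemia cells were profiled on 9 Affymetrix arrays. Per the labels' protocols, Trizol extracts gave biotin-labelled cRNA, starting from 100 ng of RNA. Values were deposited as a linear intensity for each probe set, scaled by the authors so that the mean after trimming 2% at each end was near 500.1 or 500.2 on every array. Detection calls were not used here. For the signal algorithm no source here gives a name. The number of arrays limits the precision.

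The 115 control probe sets were left out, and the other 15502 were quantile normalized, floored at 16 and put on the log2 scale, starting from the deposited values. Array medians of log2 signal differed by up to 0.302 before that step. Between 15.8% and 20.2% of the deposited signals on an array, before normalization, lay below 16. Gene symbols came from the platform annotation, where 10795 probe sets had 1 symbol, 135 had several and 4572 had none, updated through Entrez identifiers with a RefSeq table of assembly GRCz12tu used for names only. No coordinates are given, and no sequence is printed.

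Testing used the lmFit and eBayes functions of limma 3.58.1 in R 4.3.3, without covariates. Figures used Python 3.11.15 and matplotlib 3.10.9. The fit was tested on simulated data. Members, roles, partner and marker lists were chosen with earlier results of these data known. Every member was accounted for. Values by array were given for called members, for those whose probe sets disagreed and, after seeing the data, for ddx5, dhx32a and those that moved with array 7. Of each partner list, up to 3 called genes with the smallest p were named, or the 2 with the smallest p where none passed. For the translation initiation and decapping lists all called genes were named, with paralogues that pointed the other way. Alternatives covered the scaling, floor, dim probe sets, variance model, array weights, probe sets per gene, threshold, a rank test and each array left out.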

Additional observations from a re-analysis of the deposited data

Results flagged for a closer look

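Among the 6 hMYC-ER arrays, array 1 stood far from the others for 3 helicases, by the gap to the nearest array relative to the range of the group. ddx17 was 7.74 on array 1 and 9.13 to 9.59 on the other 5. ddx19b was 8.43 on array 1 and 9.58 to 10.07 on the others. ddx1 was 6.17 on array 1 and 7.20 to 7.54 on the others. The test for a distant array marks about 1 group in 20 by chance, and it marked 8.11% of the helicases and 11.8% of all genes. Array 1 had the highest 3' to 5' control ratio of the hMYC-ER arrays, 4.50, and its part in these values was not tested. The group of 3 hlk arrays was too small for this test.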

How the results depend on the processing

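No paired analysis was possible because the labels give nothing that pairs a sample of 1 model with a sample of the other. The calls of dhx37, ddx47, dhx15 and dhx29 were kept with the same direction in all 19 alternative limma fits, with adjusted p of 0.00228 to 0.0482. Those of ddx18, ddx27 and ddx39b were lost in 11, 3 and 6 of the 19, with adjusted p of 0.0239 to 0.144, 0.0150 to 0.0760 and 0.0106 to 0.0849. With median centring, 2 helicases were higher in hMYC-ER, ddx18 (0.31, adjusted p 0.144) and ddx27 (0.57, adjusted p 0.0545) being lost. Signals as deposited gave 6 calls towards hMYC-ER and 3 towards hlk, and of all genes 953 towards hMYC-ER and 929 towards hlk. A 2-fold minimum left 2 helicases towards hMYC-ER and 0 towards hlk, and of all genes 645 towards hMYC-ER and 510 towards hlk. The rank test called 0 helicases and 0 of all genes in either direction after adjustment. Leaving out 1 array gave 3 to 5 calls towards hMYC-ER and 2 to 4 towards hlk, and a median difference of the helicases from -0.06 to 0.11. The fit without array 7, with 5 and 4 calls, called 11.7% and 10.7% of all genes in these directions. The median was 0.13 when the probe sets of each gene were averaged and -0.15 with median centring, so that its sign carries no statement. Signals near the floor limit ddx4, ddx6, ddx19a and dhx32a, whose differences depend on it. With a floor of 1, ddx4 gave 0.26 in place of -0.21 and ddx6 1.496 in place of 0.66, neither of which passed.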

Other observations

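Calls were rarer among dim genes, and the helicases are mostly bright. Of the genes with a mean log2 signal under 6, 6.97% were called, and 4 helicases lay there, with 0 called. Of genes from 6 to 9, 29.0% were called, and 3 of 15 helicases. Of genes from 9 to 12, 32.6% were called, and 3 of 13 helicases. Above 12, 22.9% were called, and 1 of 5 helicases, dhx15. The spread within a model was also smaller for the helicases, with a median SD of 0.26 in hMYC-ER and 0.39 in hlk, against 0.33 in hMYC-ER and 0.43 in hlk over all genes.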
